A study of Arabidopsis thaliana with 12 samples.

Results

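The probes described here are the 80 with the highest mean deposited intensity over the wild-type arrays among the 870 probes to which the platform annotation lists 2 or more genes, out of 3439 probes on the array. The probes were chosen by those 6 WT values, and which genes a probe lists comes from the platform annotation alone. The organism is Arabidopsis thaliana. WT is ecotype Columbia 0 (6 arrays), and psae2 is a mutant of the same ecotype which, by its label, is without PSI-E2, a photosystem I protein (6 arrays). Tissue, age, growth and array chemistry are not stated in the labels, nor is the number of mutant lines. Intensities have no stated unit, run from 0 to 100, and summed to 2972 to 3610 per array. Arrays are numbered 1 to 6 in each group. Within a group, arrays 1 with 2, 3 with 4, and 5 with 6 had like deviations from the group mean, and each such pair was averaged before testing, which gives 3 pair means per group.

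Plant genomes hold many families of duplicated genes, and a hybridisation probe cannot separate transcripts that are nearly alike, nor transcripts of overlapping neighbours. Where its annotation holds, a probe with several listed genes therefore reads the sum of whatever those genes contribute. Each value below belongs to the probe, not to any of its genes, and whether a probe reads its listed genes was not tested. Photosystem I of the chloroplast passes electrons to ferredoxin on its stromal side, where the PSI-E subunit takes part in docking. In whole-sample RNA, fewer cells of a type and less RNA per cell cannot be told apart.

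The 80 probes listed 184 genes, 182 of them different, and all 184 matched the reference gene table (assembly TAIR10.1). Of the probes, 61 listed 2 genes, 15 listed 3, 3 listed 4 and 1 listed 5. The share with 2 genes was 76.2%, against 74.3% of the other 790 several-gene probes. In 14 of the 80 (17.5%), at least 2 of the listed genes lay within 5 genes of each other on the chromosome, against 15.1% of the other several-gene probes, so most lists joined genes farther apart than that. Neighbours occurred for CSLC12, AT4G07950 and AT4G07940 (probe 1431), for the resistance-type genes AT1G63740 and AT1G63730 (probe 2445) and for the F-box genes AT1G47350, AT1G47340 and AT1G47300 (probe 4280), among others.

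Brightness fell off steeply among these probes. The WT mean was above 50 for 2 probes, above 10 for 5, above 5 for 12 and above 2 for 36, with a median of 1.75 and a lower end of 1.21. For comparison, the median WT mean of the other several-gene probes was 0.306 and that of the probes with 1 listed gene 0.344. The 80 probes held 12.4% of the summed WT mean intensity of the array and 11.0% of that of psae2, and the 2 brightest held 4.94% and 3.47%. These values follow from the ranking and are a description. Just inside the limit were probe 3631 (AT5G43540 and URO), with a WT mean of 1.22, and probe 2542 (AT5G03320 and AT3G09830), with 1.2098. Just outside were probe 4502 (AT3G07565 and AT2G43470), with 1.2075, and probe 1575 (AT4G03940 and AT4G03830), with 1.18.

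In the comparison of psae2 with WT, which asks which transcripts differ in the mutant, 3 of the 80 probes passed an adjusted p of 0.05 in limma with pairs averaged. The probe of AT1G73750 and AT1G15060 rose, and the probes of AT5G08720 and AT4G01650 and of AT3G60490 and AT2G44940 fell. Over all 3010 probes tested, 2.62% passed (79 probes, of which 37 were higher in psae2), so 3 of 80 is near the background. In psae2 1 of the 80 was higher, where 1.23% of all probes were, and 2 were lower, where 1.4% were. When the pair was a block, 1.46% of all probes passed (44 probes, 34 of them among the 79) and 2 of the 80 did. Probe 2963 was kept there, the calls of 3465 and 3682 were lost, and probe 3131 was gained. Of the 80, 27 passed with the 12 arrays taken as independent (22.3% of all probes), 12 with the pair as random block (6.01%), 1 on the values as deposited (0.963%) and 3 with median centring (1.99%). The median log2 difference of the 80 probes was -0.04 (psae2 minus WT, normalized values), beside 0.01 for all probes. As deposited it was 0.04 beside 0.17, with 22 of the 29 calls on the array higher in psae2, and after median centring -0.17 beside -0.03, with 22 of 60 higher.

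Probe 2963 lists AT1G73750 and AT1G15060, which encode related proteins of the alpha/beta-hydrolase fold. It had deposited intensities of 1.61, 1.71 and 2.19 in WT (lowest, median, highest of 6) and of 3.69, 3.93 and 4.24 in psae2. All 6 psae2 samples were above all 6 WT samples. The normalized log2 level rose by 1.06, 2.09-fold, from 0.89 ± 0.30 to 1.96 ± 0.11 (SD, n = 3 pair means; adjusted p = 0.0411 in limma). The differences of the 3 pairs of numbers were 1.26, 0.85 and 1.08. On the values as deposited the adjusted p was 0.0360, and in the blocked fit 0.0452, while it was 0.0674 after median centring and 0.0726 with no filter on dim probes.

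Probe 3465 lists AT5G08720, known as HCF145 and needed for stable plastid transcripts that encode the photosystem I core, and AT4G01650, a protein of the related lipid-binding fold. It had intensities of 5.83, 6.64 and 7.55 in WT and of 4.11, 4.31 and 5.13 in psae2, again without overlap. Its log2 level fell by 0.66, 1.58-fold, from 2.79 ± 0.04 to 2.13 ± 0.11 (SD, n = 3; adjusted p = 0.0411 in limma). Which of the 2 genes the probe read was not tested. The adjusted p was 0.0575 in the blocked fit and 0.107 on the values as deposited.

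Probe 3682 lists AT3G60490 and AT2G44940, both transcription factors of the ERF/AP2 family. Intensities were 1.13, 1.34 and 1.67 in WT and 0.845, 0.931 and 1.01 in psae2, with every psae2 sample below every WT sample. The log2 level fell by 0.64, 1.55-fold, from 0.47 ± 0.09 to -0.16 ± 0.07 (SD, n = 3; adjusted p = 0.0431 in limma). The call was lost without psae2 sample 4 (adjusted p = 0.0529), in the blocked fit (0.0579) and on the values as deposited (0.141). When any 1 of the 3 pairs was dropped, 0 probes of the array passed in limma, these 3 included, while at an unadjusted p under 0.05 the fits found 224 to 520 probes, 10 to 19 of them among the 80. The adjusted p of the 3 probes was 0.0635 to 0.0642 when zeros were taken as missing. At an unadjusted p under 0.05 in the fit of all 3 pairs, 24 of the 80 probes (30%) were found, against 19.1% of all probes.

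Ranges of 6 and 6 normalized values did not overlap for 20 of the 80 probes, 9 higher and 11 lower in psae2, against 6.54% higher and 5.88% lower among all probes. As deposited the counts were 11 higher and 9 lower, against 12.7% and 2.66%. For either direction it was 12.4% of all probes normalized and 15.4% as deposited, and 20 of the 80 both ways. The WT values that chose the probes enter these comparisons, so nothing is read from these counts. Ranked by the psae2 columns instead, 68 of the 80 probes were the same and the median log2 difference was 0.08.

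The brightest of the 80 was probe 1431, which lists CSLC12, a glycan synthase of the cellulose-synthase-like C family, and its neighbours AT4G07950 and AT4G07940. It stood at 80.8, 90.8 and 100 in WT, with samples 1 and 2 at the top of the scale, and at 55.9, 70.7 and 73.5 in psae2, without overlap. It ranked 1 to 4 of all probes on the WT arrays and 3 to 7 on the psae2 arrays, and quantile normalization sets a value by rank alone. The normalized log2 difference was -0.33 (adjusted p = 0.191 in limma), that of the deposited values -0.44 (0.178) and that with median centring -0.64 (0.139). The ratio of the deposited group means was 0.740. The 2 WT values at 100 may be cut off by the scale. The WT mean and the size of the differences as deposited and with median centring would then be lower bounds. The normalized difference rests on ranks, so the same cannot be said of it.

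Probe 1803 lists AT5G51520 and AT4G25250, both of the invertase and pectin methylesterase inhibitor family. It was at 55.8, 59.8 and 92.0 in WT and at 44.9, 52.2 and 54.1 in psae2. The deposited ranges did not overlap, but WT samples of numbers 1 and 2 were far above the other WT samples, and the pair differences ran from -0.72 to 0.04. The mean log2 difference was -0.37 (95% interval -0.84 to 0.10, adjusted p = 0.37 in limma). Both of these brightest probes were thus lower in psae2 as deposited, and neither passed the test.

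Probe 4360, of the Golgi SNARE-associated family genes AT4G22850 and AT4G12000, was at 26.0, 26.5 and 27.9 in WT and at 25.1, 28.3 and 30.6 in psae2. Its log2 difference was 0.00 (95% interval -0.27 to 0.27), and it turned to 0.07 with the values as deposited. Probe 2956, of AT4G24026 and AT4G10810, had a difference of -0.01 (95% interval -0.26 to 0.23), and probe 2283, of AT1G70160, AT5G54870 and AT4G27020, one of 0.07 (-0.30 to 0.45). These turned to 0.16 as deposited and to -0.07 with median centring, respectively. For these 3 bright probes the groups overlapped and no difference was detected.

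Of the 7 probes grouped here under the chloroplast, probe 4232 was the brightest. It lists AT2G26500, the PetM subunit of the cytochrome b6f complex, together with AT5G35660. It was at 7.01, 7.25 and 12.1 in WT and at 8.66, 14.2 and 17.7 in psae2. The psae2 value was above the WT value of the same number in 6 of 6 cases, but the ranges overlapped and the pairs differed by 0.37, 1.03 and 0.18. The log2 difference of 0.53 (95% interval -0.26 to 1.32) had an adjusted p of 0.435 in limma (0.185 in the blocked fit).

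Probe 4039 lists AT4G01150 and AT4G38100, the CURT1A and CURT1D proteins that curve thylakoid membranes. WT samples lay between 2.05 and 2.30, psae2 samples 1 and 2 stood at 2.20 and 2.32, and the other 4 psae2 samples were higher, between 2.66 and 2.95. Its log2 difference was 0.16 (adjusted p = 0.624 in limma). Probe 665 lists RCA, Rubisco activase, and its relative AT1G73110, and was at 1.38, 1.499 and 1.63 in WT and at 1.35, 1.595 and 1.73 in psae2. Its log2 difference was 0.02 (95% interval -0.28 to 0.31), and -0.13 with median centring.

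Probe 2150, of the methyltransferases AT1G78140 and AT2G41040, was at 1.998, 2.26 and 2.46 in WT and at 0.968, 1.55 and 2.21 in psae2, with a log2 difference of -0.63 (adjusted p = 0.199 in limma). A further pair of probes concerns RNA of the chloroplast. Probe 2692 lists RH39, a DEAD-box helicase for chloroplast ribosomal RNA, and AT3G06980, and probe 3020 lists OTP86, an RNA editing factor, and AT4G21300. Their log2 differences were -0.08 and -0.22. Of these 7 probes and probe 3465 among them, 3 had differences above 0 and 4 below. Probe 3465 alone passed in limma, where 2.62% of all probes did. An unadjusted p under 0.05 was found for 2 (19.1% of all probes), and 2 passed with the 12 arrays as independent (22.3%). Few other genes of photosynthesis could be set beside them. Of the listed genes of the photosystem II antenna 3 of 14 were on any several-gene probe, of electron transport and ATP synthase 2 of 11 and of the Calvin cycle 1 of 16, and RCA alone was on a probe of the 80. The short lists of seed, flower and root markers had 0 genes on any probe with a listed gene, so the tissue could not be checked.

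Genes of the cell wall and of sugar transfer were on 8 probes, 4 with differences above 0 and 4 below, of which 0 passed in limma with pairs averaged. An unadjusted p under 0.05 was found for 3, where 19.1% of all probes had one, and 3 passed with the 12 arrays as independent, where 22.3% did. All groups by role were formed after the values were seen, and nothing is read from their counts. Besides probes 1431 and 1803, probe 877 lists the polygalacturonases AT3G59850, AT2G43870 and AT2G43860 together with AT2G43865. It was at 2.29, 2.46 and 3.23 in WT and at 3.86, 4.22 and 4.78 in psae2, without overlap. Its log2 difference of 0.66 had an adjusted p of 0.0744 in limma, of 0.0646 in the blocked fit and of 0.00424 with 12 arrays and the pair as random block. Probe 1732, of the O-acetyltransferase family genes TBL24 and TBL23, varied widely in both groups, from 0.621 to 2.19 in WT and from 0.329 to 1.15 in psae2. Its log2 difference of -0.91 had a 95% interval of -2.14 to 0.32 and an adjusted p of 0.39 in limma (0.0646 in the blocked fit). The pairs differed by -0.90, -0.58 and -1.24, and the psae2 value was above the WT value of the same number in 0 of 6 cases.

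The UDP-xylose transporter genes AT1G06890 and AT2G30460 (probe 3553) had WT and psae2 means of 5.93 and 6.37 and a log2 difference of 0.03, which was -0.09 with median centring. The peroxidase genes AT4G30170 and AT2G18980 (probe 3548) had 2.07 and 2.78. The second CSLC probe, 4030 (CSLC5, CSLC6 and ATCSLC08), had 1.74 and 1.62, and the O-fucosyltransferase family genes AT5G63390, AT3G07900 and AT2G44500 (probe 4130) had 1.29 and 1.53.

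Membranes and transport were represented by 5 probes, 2 with differences above 0 and 3 below. In limma 0 passed, 3 had an unadjusted p under 0.05 (19.1% of all probes), and 3 passed with the 12 arrays as independent (22.3% of all probes). Probe 2494 lists ELC and ELC-Like, plant counterparts of the VPS23 subunit of the ESCRT-I sorting complex. It was at 6.60, 8.84 and 13.5 in WT and at 5.04, 6.84 and 7.68 in psae2. The deposited values overlapped and the normalized ones did not, with a log2 difference of -0.62 (adjusted p = 0.166 in limma). Probe 3131, of the VAP-type membrane proteins AT4G21450 and AT4G05060, was at 2.47, 2.76 and 4.04 in WT and at 1.39, 1.53 and 2.79 in psae2. Psae2 sample 1 held that highest value, and the other psae2 samples were below 1.9. The log2 difference of probe 3131 was -0.88 (adjusted p = 0.0684 in limma). Probe 3131 passed in the blocked fit (0.0452) and after median centring (0.0396) but not on the values as deposited (0.139). With 1 sample left out its adjusted p was 0.0420 (without psae2 sample 1) to 0.189 (without psae2 sample 2), and 1 of 12 such fits passed. Probe 411, of the amino acid permease-like genes AT5G19500 and AT2G33260, was at 1.36, 1.598 and 1.71 in WT and at 2.37, 2.56 and 2.83 in psae2, without overlap, with a difference of 0.63 (adjusted p = 0.0537). It passed with trend and robust moderation (0.0363) and when an offset replaced the floor (0.0459). It did not pass in the blocked fit (0.0715), on the values as deposited (0.0680), after median centring (0.112) or with any 1 sample left out (0.0542 to 0.0647). Probe 4478, of SPI and AT4G02660, which encode BEACH-domain proteins, had means of 1.24 and 1.41.

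Translation and RNA handling were represented by 4 probes, 2 above 0 and 2 below. Of these 0 passed in limma, 3 had an unadjusted p under 0.05 (against 19.1% of all probes) and 3 passed with the 12 arrays as independent (against 22.3%). Probe 2709 lists AT1G08845, AT5G27820 and AT3G20230, of the ribosomal L18 family, and was at 12.1, 12.6 and 14.9 in WT and at 15.8, 17.3 and 19.7 in psae2. The deposited values did not overlap, and the log2 difference was 0.30 after normalization (adjusted p = 0.252 in limma). Probe 3454 lists AT4G26310 and AT3G08740, of the translation elongation factor P family. It was at 5.20, 5.86 and 6.21 in WT and at 3.79, 3.96 and 4.97 in psae2, without overlap, with a difference of -0.54 (adjusted p = 0.0935, and 0.0169 with 12 arrays and the pair as random block). The pentatricopeptide repeat probes 1124 (AT1G02060 and AT2G37230) and 3531 (AT5G27300, AT2G27800 and AT2G27790) had WT and psae2 means of 3.13 and 3.26, and of 3.11 and 2.43.

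Transcription was represented by 6 probes, 3 with differences above 0 and 3 below. Probe 3682 alone passed in limma, where 2.62% of all probes did. An unadjusted p under 0.05 was found for 3 (19.1% of all probes), and 3 passed with the 12 arrays as independent (22.3%). Probe 3897 lists ALC and SPT, related bHLH factors of the fruit and gynoecium, with means of 1.33 in WT and 1.77 in psae2 and no overlap of samples. Its log2 difference was 0.35 (adjusted p = 0.216 in limma). Probe 3926, of AT3G24860 and AT2G44730, had 1.51 and 2.04. The auxin-response repressors IAA30, IAA31 and IAA20 (probe 751) had 1.36 and 1.30, the zinc-finger genes AT5G43540 and URO (probe 3631) had 1.22 and 1.38, and AT5G54360 and AT5G54350 (probe 1653) had 3.51 and 3.11.

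Among 9 probes of protein turnover, signalling and stress, 2 had differences above 0 and 7 below. Of these 0 passed in limma, 1 had an unadjusted p under 0.05 (against 19.1% of all probes) and 1 passed with the 12 arrays as independent (against 22.3%). Probe 1979, of the glutaredoxin-like genes AT1G32760 and AT4G10630, had the most negative difference of the 80, -0.95 (95% interval -2.35 to 0.45, adjusted p = 0.43). The pair differences were 0.02, -0.71 and -2.15, so the value depended on the numbers. In psae2 it was at 1.95 and 1.91 in samples 1 and 2, at 0.825 and 0.750 in samples 3 and 4, and at 0.293 and 0.295 in samples 5 and 6. WT samples spread from 1.19 to 1.90, with numbers 1 and 2 again the highest.

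The cyclophilin genes AT3G66654 and AT2G47320 (probe 4466) had WT and psae2 means of 6.51 and 6.31 and a log2 difference of -0.16. The resistance-type genes AT1G63740 and AT1G63730 (probe 2445) had 2.48 and 3.23. Means were 1.74 and 1.74 for the F-box genes UFO and AT5G15710 (probe 1515) and 1.22 and 1.20 for probe 4280. They were 1.27 and 1.30 for the RING-finger genes AT1G32740, AT5G47050 and AT4G17680 (probe 625), and 1.38 and 1.40 for PHOS32 and PHOS34 (probe 4444). The receptor-like kinase genes AT5G03320 and AT3G09830 (probe 2542) had 1.21 and 1.06. The small cysteine-rich membrane proteins AT1G56060, AT1G05340, AT2G32210, AT2G32200 and AT2G32190 (probe 1425), the longest list, had 1.24 and 1.35.

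The other 41 probes, of genes with mixed or less certain roles, had 21 differences above 0 and 20 below. In limma 1 of them (probe 2963) passed, where 2.62% of all probes did. An unadjusted p under 0.05 was found for 9 (19.1% of all probes), and 12 passed with the 12 arrays as independent (22.3%). Without overlap and higher in psae2 were probe 4189 (AT5G58990 and AT5G52370, means 4.07 and 5.98), probe 1145 (AT1G55340 and AT3G03880, 2.11 and 3.13), probe 10 (AT5G03560 and AT4G38150, 1.44 and 2.27) and probe 2793 (AT2G31100 and AT2G19940, 1.36 and 2.09). Without overlap and lower were probe 3262 (AT3G51090 and AT2G16460, 3.05 and 2.17), probe 3257 (AT1G18270 and AT4G20930, 2.61 and 2.17) and probe 3261 (AT3G07510 and AT2G01580, 1.499 and 1.19). Probe 159 (AT2G44260 and AT2G44230, 1.76 and 1.63) and probe 4268 (AT1G79060, AT1G56020 and AT3G12970, 1.34 and 1.09) were lower without overlap after normalization, while their deposited ranges overlapped. None of these 9 passed in limma with pairs averaged. Probe 4399, of the ARM-repeat genes AT1G59850, AT1G27210, AT5G62580 and AT2G07170, was at 3.43, 4.09 and 5.60 in WT and at 2.36, 2.70 and 3.20 in psae2, with a difference of -0.64 (adjusted p = 0.163 in limma). Probe 2254, of AT1G50040 and AT3G19680, followed the sample numbers in psae2, as probe 1979 did (2.28 and 2.41, then 1.41 and 1.40, then 0.754 and 0.746), with WT samples at 1.47 to 1.81.

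Of the remaining probes, a pair shares genes. Probes 2026 (AT5G66000, AT4G35510 and AT2G17540) and 1862 (AT4G35510 and AT2G17540) had log2 differences of 0.20 and 0.14. Of the rest, WT means between 2 and 5 were those of the following probes, given with the psae2 mean after the WT mean. They were probe 1246 (AT4G22030 and AT4G04480, 4.96 and 5.11), probe 2187 (AT1G76620, AT1G43020, AT1G21065 and AT1G21060, 4.14 and 4.63), probe 2005 (AT4G00165 and AT2G45180, lipid-transfer type proteins, 3.07 and 3.72), probe 1561 (AT1G44224 and AT3G50570, 2.98 and 3.93) and probe 985 (AT4G05630 and AT4G05620, 2.96 and 3.18). Probe 2161 (AT1G50660, AT1G11690 and AT3G20350), probe 3373 (AT5G53270 and AT5G53260), probe 3073 (AT1G12330 and AT5G12900) and probe 230 (AT3G33528, AT3G33530 and AT2G26610) had WT means of 2.17 to 2.20 and psae2 means of 2.01 to 2.17.

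The dimmer probes without a call had WT means of 1.24 to 1.94. They were those of AT4G36195 and AT4G36190 (probe 3368), AT3G50190 and AT3G50140 (4538), AT1G20500 and 4CL8 (1094), AT1G01570 and AT4G00295 (841), AT5G56220 and AT4G23440 (135), AT1G11380, AT5G05350 and AT3G10980 (3039), AT1G71970 and AT1G22680 (938), AT1G24270 and AT5G13090 (3602), AT5G59410 and AT2G29020 (27), and AT2G44400, AT2G42060 and AT2G27660 (3747). The same holds for AT5G44540 and AT4G20420 (386), AT2G36470 and AT2G27770 (3543), AT5G66800 and AT3G50640 (1621), AT5G64400 and AT5G09570 (3931), AT4G35320 and AT2G17300 (649), and AT1G16630 and AT2G16270 (795).

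The differences ran from -0.95 to 1.06, 37 were above 0 and 43 below, and 80% were within 0.5 of 0, against 85.2% of all probes. The SD over the 6 WT samples had a median of 0.15 on the log2 scale for the 80 probes and of 0.18 for all probes, and over the 6 psae2 samples 0.15 and 0.23. All 80 probes were above the floor on every array, so none of their own values was set to it. The figures for all probes include dim values that were set to the floor.

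Genes of 30 of the 80 probes were also listed on another probe, and for 12 of them the other probe listed the same genes. In 5 of these 12 the other probe was under the floor on all 12 arrays. Probe 1872, for which RCA and AT1G73110 are listed as for probe 665, was at 0 in all 6 WT samples, and so was probe 4133, for which the peroxidase genes AT4G30170 and AT2G18980 are listed as for probe 3548. Probe 833, with the genes of probe 2963, reached at most 0.0233 in WT and 0.034 in psae2. The rise seen at probe 2963 therefore has no second reading from the probe of the same genes. Levels of different probes are not amounts of RNA that can be set against each other.

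In the 7 cases where both probes were tested, the signs of the log2 differences matched in 4 and opposed in 3. The genes of the fallen probe 3682, AT3G60490 and AT2G44940, are also listed for probe 2098, which was at 0.576 to 0.683 in WT and at 0.714 to 0.949 in psae2. The latter's log2 difference was 0.23 (adjusted p = 0.518 in limma), beside -0.64 for probe 3682. On the deposited values the log2 ratio of probe 3682 over probe 2098 was 0.82 to 1.46 in WT and -0.15 to 0.41 in psae2. The psae2 samples were thus lower at one probe and higher at the other, and the difference between them was not tested. Probe 2254 had -0.37 and its partner 2747 had 0.36. Probe 3602 had -0.15 and its partner 1693, of the same sign, had -1.11 (adjusted p = 0.325 in limma). Probe 1693 varied widely in psae2, from 0.133 to 0.922, over a WT range of 0.498 to 0.869. The probe of AT1G08845 alone had a difference of 0.82 (adjusted p = 0.163 in limma), beside 0.30 at the shared probe 2709. That probe of AT1G08845 was dim, at 0.0965 to 0.210 in WT and 0.201 to 0.455 in psae2. Its lowest WT values were thus near the floor (0.0638 to 0.105), where a log2 difference is less certain. Of the 24 partner probes that could be tested, 0 passed in limma with pairs averaged, where 2.62% of all probes did. An unadjusted p under 0.05 was found for 6 of them, where 19.1% of all probes had one.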

How the data were processed

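The authors deposited 1 table of intensity values on a linear scale, 0 to 100, for 3439 probes in 12 samples. The labels do not state how the arrays were read, corrected and scaled. Gene lists per probe come from the platform annotation, which can be old, and were matched by gene ID to TAIR10.1. Probe sequences and reference sequences were not used here. Groups and numbers come from the sample titles. A floor was set on each array at the 5th percentile of its positive values (0.0638 to 0.105), and the values were log2-transformed and quantile-normalized. The 429 probes under that floor on all arrays were left out, which leaves 3010.

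In each group the arrays 1 with 2, 3 with 4, and 5 with 6 were averaged, because their deviations from the group mean correlated at 0.24 to 0.71 and those of other numbers at -0.68 to -0.12. Which numbers to average was thus read from the data, not from the labels. Across groups, same-numbered samples correlated at 0.34 to 0.53 in all 6 cases, so the numbers pair the samples. The main fit did not use this pairing across groups, and the fit with the pair as a block did. Pair means were tested with limma 3.58.1 in R 4.3.3 over all probes with Benjamini-Hochberg adjustment. The fits alone were run on simulated data, built from normalized values and without pairing across groups. The floor, the filter and the normalization were not tested in that way. Alternatives were other fits of the 12 samples, scalings, floors, filters and rankings, and leaving out samples.

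Fully described probes were the 12 brightest, those called, the 10 with the largest difference and those with a gene of a fixed list. Others described in full were added after their values were seen, as were the groups by role. Members and lists were chosen with earlier results of these data known. Nothing says the samples came from separate plants, so p-values cover the spread between these samples alone, which may be technical.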

Additional observations from a re-analysis of the deposited data

Results flagged for a closer look

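Dixon's ratio was taken in 44 sets, the 6 samples of each group for each of the 22 probes described by rule, and in 5 sets 1 sample stood apart by more than Dixon's 95% limit. Chance gives about 1 in 20 for 6 independent normal values. Here the numbers of a pair resemble each other and normalized values are set by rank, so the 5 sets cannot be judged against that rate. Probe 1431 (CSLC12, AT4G07950 and AT4G07940) had a log2 level of 6.33 in WT sample 5, against 6.53 to 6.58 in the remaining 5 (Dixon ratio 0.788). Probe 2709 (AT1G08845, AT5G27820 and AT3G20230) had a log2 level of 3.48 in WT sample 2, against 3.78 to 3.87 in the remaining 5 (Dixon ratio 0.755). Probe 3131 (AT4G21450 and AT4G05060) had a log2 level of 1.37 in psae2 sample 1, against 0.47 to 0.75 in the remaining 5 (Dixon ratio 0.689). Probe 3553 (AT1G06890 and AT2G30460) had a log2 level of 2.76 in psae2 sample 4, against 2.58 to 2.64 in the remaining 5 (Dixon ratio 0.633). Probe 4360 (AT4G22850 and AT4G12000) was at 4.46 in psae2 sample 1 and at 4.79 in the remaining 5 (Dixon ratio 1), where it had rank 17 on that array and rank 15 on the remaining 5, and quantile normalization gives equal ranks equal values. The cause of the other 4 was not tested.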

How the results depend on the processing

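Of all probes 79 passed. The count was 671 with 12 samples as independent, 1011 with these and a replicate block, 44 with pairs averaged and a replicate block, 181 with 12 samples and a random block of pairs, 29 with the values as deposited, 21 with zeros missing and no floor, 0 at an adjusted p under 0.01 and 0 with any pair of numbers left out of both groups (224 to 520 at an unadjusted p under 0.05, in limma). It was 53 to 81 with 1 sample left out. In the same order 3 of the 80 probes became 27 (22.3% of all probes passed there), 38, 2, 12, 1, 0, 0 and 0. With trend and robust moderation 5 of the 80 passed, beside 87 of all probes. With 1 sample left out 2 to 4 of the 80 passed. Fewer pairs and a stricter threshold lower a count by construction, and otherwise the cause was not tested. As deposited, 22 of the 29 calls were higher in psae2, against 37 of 79, and 22 of 60 with median centring.

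The median log2 difference of the 80 probes (-0.0389) was 0.0352 as deposited, -0.172 with median centring, -0.025 with zeros missing, -0.07 without numbers 1 and 2, 0.0769 with probes ranked on psae2, 0.0245 ranked on all 12 and -0.0553 to -0.0234 with 1 sample left out. The median of all probes moved with scaling too, to 0.17 as deposited and -0.03 with median centring.

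Of the 22 probes described by rule, 17 kept their sign in the 26 alternatives run. Probe 4360 was at 0.0683 as deposited, 0.032 with zeros missing and -0.0577 to 0.0543 with 1 sample left out. Probe 2956 was at 0.164 as deposited, 0.00306 without numbers 1 and 2 and -0.0263 to 0.000164 with 1 sample left out. Probe 2283 was at -0.0712 with median centring and -0.00648 without numbers 3 and 4. Probe 3553 was at -0.0905 with median centring, -0.0907 without numbers 1 and 2 and -0.00715 to 0.0549 with 1 sample left out. Probe 665 was at -0.134, -0.0352 and -0.00535 to 0.0365 in the same settings. None of these passed there, and why was not tested. Leaving out 1 sample, the adjusted p was 0.0423 to 0.048 for probe 2963, 0.0428 to 0.0481 for 3465 and 0.0436 to 0.0529 for 3682.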
